A study of Mus musculus with 9 samples.

Results

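The 38 genes described here are classical type I interferon-stimulated genes, measured by RNA sequencing in mouse bone marrow (BM)-derived macrophages (Mϕs). They were chosen by symbol from what is known of the family and matched to the gene identifiers of the deposited table, by a rule that sets no threshold on a measured value. All 38 were found among the 53379 genes of the table, and all 38 passed a filter on low values that left 12824 genes for testing.

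BM cells flushed from the leg bones of wild-type C57BL/6 mice were cultured for 3 days with 10 ng/ml CSF-1 (colony-stimulating factor 1, also M-CSF), which drives their growth and differentiation. Control Mϕs then stayed in CSF-1 alone for 4 days. The other groups received CSF-1 together with IL-4 at 10 ng/ml, a cytokine of alternative Mϕ activation, or with IL-6 at 100 ng/ml, a cytokine that signals through STAT3, for the same 4 days. Each group has 3 libraries, numbered #1 to #3, and all 9 share the CSF-1 culture. Whether a number marks the same mouse in every group is not given in the sources used here. The age of the mice is not given in the sources used here. The methods of the study give another IL-4 dose than the labels, and its legends other doses and times, so the labels were followed. The comparisons ask what each cytokine does to these genes against CSF-1 alone, and how the cytokines differ.

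Type I interferons bind the receptor made of IFNAR1 and IFNAR2, whose kinases JAK1 and TYK2 phosphorylate STAT2, which joins IRF9 in a complex that binds the interferon-stimulated response element (ISRE) in promoters. The genes it turns on encode sensors of viral RNA, enzymes and GTPases that block viral replication, and feedback regulators, and unstimulated Mϕs are known to keep many of them on at a low level.

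Values are FPKM, fragments per kilobase of a gene's exons and per unit of library size, so levels of different genes can be compared. In IL-4 #3 this holds less well for genes of unlike exon length, as described below. A gene was called higher or lower when its limma adjusted p was under 0.05 and its log2 fold change reached 1 or −1, on log2(FPKM + 0.1), and "rose" and "fell" are used only of called genes. Libraries held 29988160 to 39909571 fragments. All 8 Mϕ markers were present in every library, from Mertk at 6.69 FPKM in IL-4 #3 to Lyz2 at 18963 in IL-6 #1. Their sum, mostly Lyz2, was 6021 to 7062 FPKM with IL-4 against 16662 to 18966 in control and 20369 to 21461 with IL-6. The markers did not move as one, since 5 fell with IL-4 while Itgam lay above control in every IL-4 library (means of 60.1 and 35.3 FPKM, not called), and Cd68 lay below control in every IL-6 library (952 against 1513, not called). The treatments could be checked on Socs3, a target of IL-6 signaling, which was 1.61 to 2.91 FPKM in control and 74.7 to 85.5 FPKM with IL-6, and on Arg1, a target of IL-4 signaling, which was 0.409 to 0.718 FPKM in control and 730 to 1227 FPKM with IL-4. Libraries stood apart in a pair of ways that touch the results below. IL-4 #3 was low for genes with long exons. The libraries also fell into separate sets by fragments of Paneth and goblet cell genes, which mark intestine. Control #1 to #3 and IL-4 #1 held 991 to 1276 such fragments each, and IL-4 #2 and #3 and all IL-6 libraries 3 to 8, so IL-6 and control cannot be compared within a set. Some skeletal muscle genes split the other way. Myh1 had 60 to 106 fragments in the second set and 0 in the first, and Mylpf 82 to 190 and 14 to 29. Not all 14 muscle genes listed did so, since Tnni2 was highest in control. In these bulk libraries, fewer cells of a type and less RNA per cell cannot be told apart.

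With IL-4, 16 of the 38 members fell, 2 rose and 20 were not called. Both Mx genes, 3 of 4 IFIT genes and 3 of 5 OAS genes were among those that fell, with Ifit3b, Ifit3 and Oas2 at 1.99%, 6.50% and 5.73% of their control means. Gbp2, a guanylate-binding protein, and Usp18, which removes ISG15 from proteins and restrains the receptor, rose to 7.54 and 2.84 times control. The calls make 47.4% of the members against 13.9% of all genes tested (8.89% lower and 5.02% higher). The median log2 fold change was −0.95 over the members and −0.20 over all genes. In 20 members all IL-4 libraries lay below all control libraries, in 3 they lay above and in 15 the groups overlapped, against 26.8% of all genes below and 13.5% above. For members without overlap the two-sided exact permutation test gave p = 0.1, the smallest that 3 libraries against 3 allow.

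With IL-6, few of these genes passed the test, and most values lay slightly above control. Only Ifi44 was called higher and only Ifit3b lower, 5.26% of the members against 5.38% of all genes (3.49% higher and 1.89% lower), close to the background share. With the library number as a replicate block over all 9 libraries, Ifi44 and Ifit3b lost their calls and Ifitm3 alone was called, higher (background 5.12%). Same-numbered control and IL-6 libraries deviated together, while IL-4 libraries shared only a number with them, so the block is not a fit of those pairs alone. Without the block, the log2 fold changes of the members ran from −1.07 to 1.09, with 31 above 0 and 7 below, and a median of 0.37 against 0.00 over all genes. In 18 members the lowest IL-6 library exceeded the highest control library, and in 2 the reverse held, against 20.0% and 23.2% of all genes.

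Set against each other, the cytokines differed in 25 of the 38 members (65.8%, against 20.4% of all genes tested). IL-6 was higher than IL-4 in 23 of them (background 13.6%) and lower in 2 (background 6.82%), namely Gbp2 and Usp18. The median log2 fold change of IL-6 over IL-4 was 1.43 over the members and 0.22 over all genes. No overlap was left between the cytokines in 30 members, with IL-6 above IL-4 in 27 and below it in 3, against 36.3% and 20.6% of all genes. The 3 comparisons share their libraries and are not independent of each other.

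**Figure D1:**
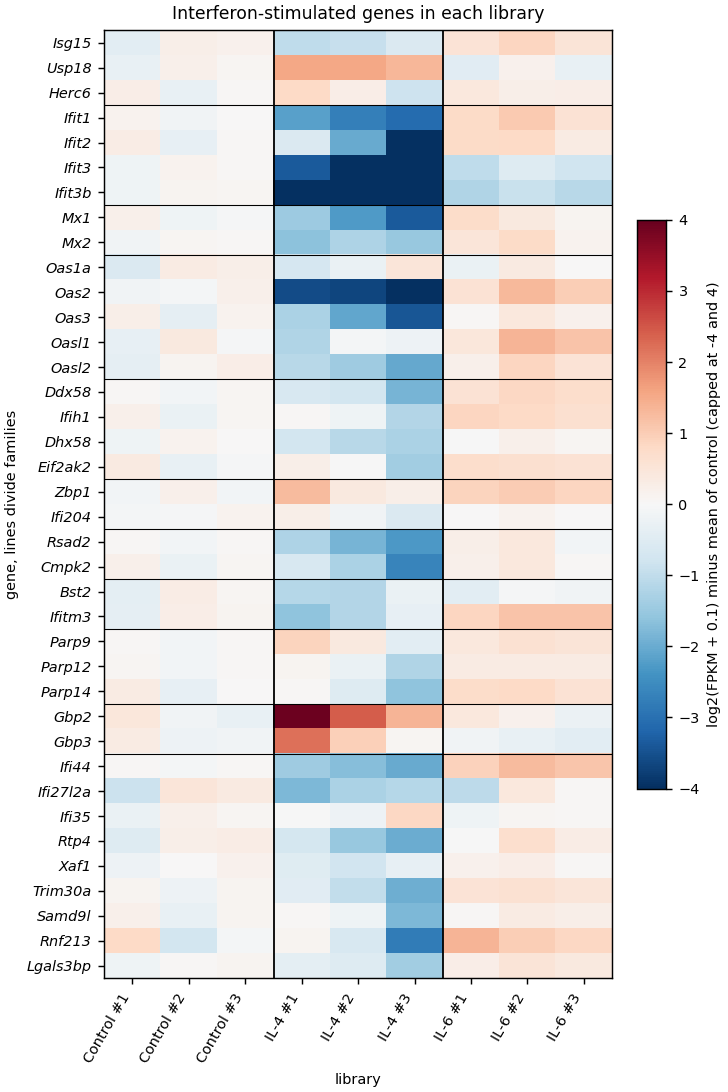
Each row is 1 of the 38 genes and each column 1 library, with color for log2(FPKM + 0.1) minus the gene's mean over the control libraries (red higher, blue lower, capped at −4 and 4), and lines divide gene families and groups. The IL-4 columns are mostly blue, deepest for the IFIT genes and Oas2, with Gbp2 and Usp18 red, while the IL-6 columns are mostly pale red. The median over the members was −0.64, −0.85 and −1.39 in IL-4 #1, #2 and #3 against 0.29 to 0.48 in the IL-6 libraries. Over all genes tested it was −0.06, −0.07 and −0.45 in IL-4 #1, #2 and #3 and −0.02 to 0.01 in the IL-6 libraries.

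The promoters show what the members share in sequence. RefSeq promoter windows on GRCm38.p6, from 250 bases before to 50 bases after the start of transcription, were at hand for 27 of the 38 members. The windows were searched on both strands for the core of the ISRE, GAAA and GAAA with any 2 bases between (TTTC and TTTC on the other strand), and for TTC and GAA with 3 or with 4 bases between, the spacings known for STAT3 and for STAT6. Matches of different motifs may overlap and were counted separately. The ISRE core stood in 15 of the 27 windows (55.6%) and in 3.99% of the 27025 genes with a window. The STAT motif with 3 bases between stood in 22.2% against 9.55%, and that with 4 in 11.1% against 8.01%. Among members with a window, the core was found in 8 of 11 that fell with IL-4, in 6 of 15 that were not called and in Gbp2, the 1 that rose. A match is a run of letters and not a measured binding site. No window was at hand for Usp18, Mx1, Mx2, Oas2, Dhx58, Zbp1, Ifi204, Parp9, Parp14, Ifi27l2a and Rtp4.

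The stretches below show the cores of Isg15 and of 5 members that fell with IL-4, of Oas1a, which did not differ, and of Gbp2, which rose. They are written 5′ to 3′ on the strand of the gene, with ISRE core matches in capitals. They lie at chr4:156200851-156200920 (Isg15, minus strand), chr19:34640761-34640837 (Ifit1, plus), chr19:34583349-34583440 (Ifit3, plus), chr19:34607745-34607836 (Ifit3b, plus), chr5:120777701-120777758 (Oas3, minus), chr12:26456539-26456596 (Rsad2, minus), chr5:120907526-120907569 (Oas1a, minus) and chr3:142620594-142620623 (Gbp2, plus).
Isg15: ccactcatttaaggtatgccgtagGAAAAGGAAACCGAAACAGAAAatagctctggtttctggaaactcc
Ifit1: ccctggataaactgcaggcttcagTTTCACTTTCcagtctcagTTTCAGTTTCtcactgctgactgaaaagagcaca
Ifit3: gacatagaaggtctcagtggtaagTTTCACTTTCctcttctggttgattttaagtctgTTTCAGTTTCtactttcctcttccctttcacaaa
Ifit3b: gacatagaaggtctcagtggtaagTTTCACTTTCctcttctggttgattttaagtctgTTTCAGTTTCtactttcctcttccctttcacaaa
Oas3: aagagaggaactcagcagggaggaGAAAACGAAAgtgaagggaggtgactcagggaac
Rsad2: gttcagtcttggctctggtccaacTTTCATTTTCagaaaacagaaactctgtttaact
Oas1a: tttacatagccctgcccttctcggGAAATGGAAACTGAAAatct
Gbp2: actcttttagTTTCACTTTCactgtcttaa
Isg15 carries 3 overlapping matches, the first starting 78 bases before the start of transcription. Ifit1, Ifit3 and Ifit3b carry 2 each, and the stretches of Ifit3 and Ifit3b are identical at 92 of 92 positions. The 10-letter match in Gbp2 is the same run of letters as the first match in Ifit1 and in Ifit3, while these genes moved in opposite directions with IL-4. GENCODE M21 starts Gbp2 upstream of the RefSeq start, at base 142620602, inside the stretch shown.

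The IFIT proteins bind viral RNA and block its translation, and their genes lie side by side on chromosome 19. Ifit1 (chr19:34640871-34650009 on GRCm38, from GENCODE M21) was at 5.12, 4.27 and 4.70 FPKM in Control #1 to #3, at 0.958, 0.621 and 0.472 with IL-4 and at 8.12, 9.79 and 7.05 with IL-6. The 3 groups did not overlap. Against control its log2 fold change with IL-4 was −2.66, with a standard error (SE) of 0.24 and a limma adjusted p of 0.000157, and with IL-6 it was 0.80 (adjusted p = 0.0861), which was not called. IL-6 exceeded IL-4 by 3.46 on the log2 scale (adjusted p = 2.42e-05).

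Ifit3 (chr19:34583531-34588731) was the most abundant IFIT gene in control, at 18.2, 22.8 and 21.4 FPKM. It was at 1.93, 0.927 and 1.21 FPKM with IL-4 and at 10.3, 14.5 and 12.0 FPKM with IL-6, and again the 3 groups did not overlap. Unlike Ifit1, its IL-6 libraries lay below control. Ifit3 fell with IL-4 by a log2 fold change of −3.90 (SE 0.25, adjusted p = 2.68e-05), and its IL-6 value was −0.76 (adjusted p = 0.120, not called).

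Ifit3b (chr19:34607970-34613401), a close copy of Ifit3, was at 2.97, 3.62 and 3.59 FPKM in control, at 0.102, 0.0495 and 0.0501 with IL-4 and at 1.40, 1.78 and 1.51 with IL-6. The IL-4 values rest on 7, 3 and 4 fragments, so the size of that fall is imprecise. Ifit3b fell with both cytokines, with log2 fold changes of −4.39 with IL-4 (adjusted p = 6.06e-06) and −1.07 with IL-6 (adjusted p = 0.0188). The IL-6 call was kept in 4 of 9 leave-one-out fits, each without 1 library. Of the 50-base stretches in its transcripts, 45.0% also occur in other genes, chiefly Ifit3, and 51.2% of those of Ifit3 occur in Ifit3b, so how fragments were divided between them is uncertain.

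Ifit2 (chr19:34550694-34576419) spread widely with IL-4. It was at 16.0, 10.3 and 13.6 FPKM in control, at 8.78, 3.13 and 0.644 in IL-4 #1 to #3 and at 22.1, 23.0 and 16.4 with IL-6. The groups did not overlap, yet its log2 fold change of −2.25 was not called (SE 0.75, adjusted p = 0.0623). IL-6 was higher than IL-4 by 2.88 (adjusted p = 0.0198).

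The IFIT genes also differed among themselves with IL-6. The ratio of Ifit3 to Ifit1 was 3.56 to 5.35 in the control libraries, 1.49 to 2.56 with IL-4 and 1.28 to 1.70 with IL-6. The ratio of Ifit3b to Ifit1 was 0.579 to 0.848 in control, 0.0797 to 0.107 with IL-4 and 0.173 to 0.215 with IL-6. Both ratios were thus higher in every control library than in any cytokine-treated library. These ratios were chosen after their values were seen and were not tested.

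The Mx proteins are GTPases that trap viral nucleocapsids. Mx1 (chr16:97447035-97462907) was at 7.13, 5.54 and 6.00 FPKM in control, at 2.21, 1.20 and 0.515 with IL-4 and at 10.3, 8.16 and 6.62 with IL-6. It fell with IL-4 by 2.35 on the log2 scale (SE 0.43, adjusted p = 0.00525), without overlap, while IL-6 overlapped control (log2 fold change 0.41, adjusted p = 0.656). Mx2 was low throughout, at 0.777 to 0.923 FPKM in control, 0.210 to 0.310 with IL-4 and 0.955 to 1.54 with IL-6. It fell with IL-4 as well (log2 fold change −1.46, adjusted p = 0.00357).

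The OAS enzymes make oligoadenylates that switch on RNase L, which degrades RNA. Oas2 (chr5:120730333-120749853) was at 5.41, 5.68 and 6.95 FPKM in control, at 0.414, 0.378 and 0.242 with IL-4 and at 8.89, 14.7 and 11.8 with IL-6. The group means were 6.01 ± 0.820, 0.345 ± 0.0907 and 11.8 ± 2.90 FPKM (SD, n = 3). The 3 groups stood apart, and no member differed more between the cytokines, with a log2 fold change of IL-6 over IL-4 of 4.73 (adjusted p = 4.41e-06) and a ratio of means of 34.2. Oas2 fell with IL-4 by 3.79 on the log2 scale (SE 0.24, adjusted p = 2.15e-05), and its IL-6 value was 0.94 (adjusted p = 0.0469), just under the fold threshold.

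Oas3, at 2.20 to 3.36 FPKM in control, was at 1.12, 0.593 and 0.177 FPKM in IL-4 #1 to #3 and fell by 2.26 on the log2 scale (adjusted p = 0.0105). Oasl2, an OAS-like gene, was at 4.63 to 7.31 FPKM in control and 1.37 to 2.72 with IL-4 (log2 fold change −1.53, adjusted p = 0.00624). Neither was called with IL-6. Oas1a behaved unlike both.

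Oas1a was at 11.9, 22.7 and 21.3 FPKM in control, at 11.1, 14.9 and 25.0 with IL-4 and at 14.8, 22.9 and 18.2 with IL-6. All groups overlapped, and its log2 fold changes were −0.16 (SE 0.35, adjusted p = 0.769) and 0.03 (adjusted p = 0.968). Of its 50-base stretches, 57.6% also occur in other genes, chiefly Oas1g, so its own level is uncertain. Oasl1, at 0.802 to 1.39 FPKM in control, was at 1.44, 2.82 and 2.40 FPKM with IL-6, above every control library, but its log2 fold change of 0.98 was not called (adjusted p = 0.181).

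**Figure D2:**
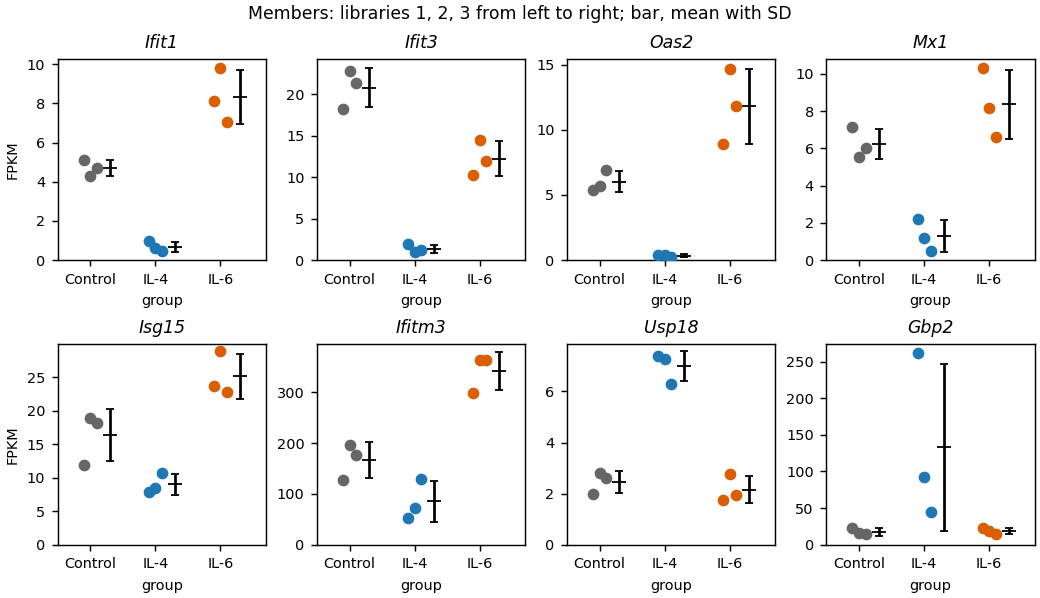
FPKM of 8 members in each library (points, replicates 1 to 3 from left to right within a group) with the group mean and SD beside them, on axes from 0. For Ifit1, Ifit3, Oas2 and Mx1 all IL-4 points lie below all control points, for Usp18 and Gbp2 above them, and for Ifitm3 IL-4 #3 lies within the control range at 130 FPKM.

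The ISG15 system has 3 members. ISG15 is a ubiquitin-like protein that is attached to other proteins, HERC6 attaches it in the mouse, and USP18 removes it. Isg15 (chr4:156199424-156200818) was at 11.9, 18.9 and 18.2 FPKM in control, at 7.82, 8.42 and 10.7 with IL-4 and at 23.6, 28.9 and 22.8 with IL-6. The groups did not overlap, but neither change against control was called (log2 fold change −0.84 with IL-4, adjusted p = 0.0210, and 0.64 with IL-6, adjusted p = 0.117). IL-6 was called higher than IL-4, by 1.48 (adjusted p = 0.00114).

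Usp18 (chr6:121245906-121270917) went the other way. It was at 1.97, 2.81 and 2.60 FPKM in control, at 7.37, 7.27 and 6.30 with IL-4 and at 1.76, 2.76 and 1.96 with IL-6. The IL-4 mean was 6.98 ± 0.590 FPKM and the control mean 2.46 ± 0.437 (SD, n = 3). All IL-4 libraries stood above the rest, with a log2 fold change of 1.48 (SE 0.21, adjusted p = 0.00132), and IL-6 overlapped control (−0.19, adjusted p = 0.660). The ratio of Usp18 to Isg15, chosen after seeing the values and not tested, was 0.143 to 0.165 in control, 0.589 to 0.943 with IL-4 and 0.0744 to 0.0954 with IL-6, with no overlap between groups. Exons of Usp18 and Isg15 span 2790 and 756 bases. The lowest IL-4 ratio was in IL-4 #3, the library low for genes with long exons. Herc6 overlapped in all groups, at 1.46 to 2.20 FPKM in control and 0.990 to 3.20 with IL-4. Uba7, which activates ISG15 for attachment and is no member of the list, fell with IL-4 (14.2 to 6.74 mean FPKM, log2 fold change −1.11, adjusted p = 0.00691).

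Guanylate-binding proteins are GTPases that attack the vacuoles of intracellular pathogens, and interferon-γ as well as type I interferon is known to induce them. Gbp2 (chr3:142620602-142638008) was at 23.4, 15.5 and 14.0 FPKM in control, 262, 92.6 and 44.2 in IL-4 #1 to #3 and 23.2, 19.2 and 14.7 with IL-6. No IL-4 library reached down to the control range, but the IL-4 libraries differed widely among themselves, with a mean of 133 ± 114 FPKM against 17.6 ± 5.03 in control (SD, n = 3). The log2 fold change was 2.57 (SE 0.57, adjusted p = 0.0125), and the call was lost without Control #3 (adjusted p = 0.0503). Gbp3, at 7.37 to 10.9 FPKM in control, was at 40.1, 16.7 and 9.02 FPKM in IL-4 #1 to #3, again highest in IL-4 #1, and was not called (log2 fold change 1.08, adjusted p = 0.130).

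Among the sensors, Ddx58 encodes RIG-I and Ifih1 MDA5, which detect viral RNA in the cytosol, Dhx58 encodes LGP2, which modulates them, and Eif2ak2 encodes PKR, a kinase that halts translation. Dhx58 fell with IL-4 from 12.5, 15.5 and 14.2 FPKM to 8.33, 6.47 and 5.80 (log2 fold change −1.03, adjusted p = 0.00228) and was level with control with IL-6 (13.8 to 16.1 FPKM). Ddx58 fell from 6.27 to 7.18 FPKM to between 1.81 and 4.28 (log2 fold change −1.08, adjusted p = 0.0304), a call kept in 2 of the 9 leave-one-out fits and lost after median-ratio rescaling. Ifih1 and Eif2ak2 overlapped control with IL-4. In Ddx58, Ifih1 and Eif2ak2 no IL-6 library overlapped control, with log2 fold changes of 0.70, 0.77 and 0.64 that were not called. Between the cytokines Ddx58, Ifih1 and Dhx58 were called higher with IL-6, by 1.78, 1.20 and 1.12. The Ifih1 call was kept in 6 of the 9 leave-one-out fits.

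Zbp1, a sensor of Z-form nucleic acids that triggers cell death, was 1 of 3 members above control with IL-4 in every library. It was at 3.97, 4.87 and 3.97 FPKM in control, at 10.4, 5.56 and 5.07 with IL-4 and at 7.96, 8.78 and 7.82 with IL-6, and neither change was called (log2 fold changes 0.63 and 0.93, adjusted p = 0.111 and 0.0676). Ifi204, a DNA-binding protein, was level in all groups at 26.0 to 45.9 FPKM. Of its 50-base stretches, 20.0% also occur in other genes, chiefly Ifi211.

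Rsad2 encodes viperin, which makes a chain-terminating nucleotide, and Cmpk2, a nucleotide kinase, is its neighbor on chromosome 12 (chr12:26442746-26456452 and chr12:26469204-26479837). Rsad2 was at 11.7, 10.4 and 11.6 FPKM in control, at 4.70, 3.04 and 2.18 with IL-4 and at 13.3, 15.1 and 10.3 with IL-6. Cmpk2 was at 4.76, 3.44 and 4.33 FPKM in control, at 2.64, 1.66 and 0.584 with IL-4 and at 4.73, 5.61 and 4.26 with IL-6. Both fell with IL-4, by 1.80 (adjusted p = 0.00190) and 1.51 (adjusted p = 0.0403), and both overlapped control with IL-6. The Cmpk2 call was kept in 1 of the 9 leave-one-out fits.

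Of the membrane proteins, IFITM3 blocks fusion of virus with endosomes and BST2 (tetherin) holds budding virus on the cell. Ifitm3 (chr7:141009586-141010770) was at 127, 197 and 176 FPKM in control, at 53.5, 72.5 and 130 with IL-4 and at 299, 364 and 363 with IL-6. IL-6 lay above all other libraries (log2 fold change 1.05, adjusted p = 0.0871, not called). IL-4 #3 reached the control range, and the IL-4 call (−1.04, adjusted p = 0.0434) was kept in 1 of the 9 leave-one-out fits. Bst2 was at 120 to 191 FPKM in control, 70.8, 69.2 and 130 with IL-4 and 116 to 151 with IL-6, and was called in no comparison.

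The PARPs, enzymes that attach ADP-ribose, were not called against control with either cytokine. Parp9 was at 9.22 to 10.4 FPKM in control and at 18.6, 13.2 and 7.40 in IL-4 #1 to #3, Parp12 at 13.4 to 15.2 and at 15.5, 12.1 and 6.28, and Parp14 at 15.7 to 24.9 and at 20.4, 13.9 and 6.52. In all 3 genes IL-4 #1 was the highest and IL-4 #3 the lowest IL-4 library. With IL-6 all libraries of the 3 genes lay above control, and Parp14 was called higher than with IL-4 (1.39, adjusted p = 0.0225). The Parp14 call was kept in 5 of the 9 leave-one-out fits.

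Among the other effectors, Ifi44 was the 1 member called higher with IL-6. It was low, at 0.570, 0.517 and 0.581 FPKM in control, at 0.143, 0.102 and 0.0613 with IL-4 and at 1.13, 1.48 and 1.30 with IL-6, and the IL-4 values rest on 30, 19 and 15 fragments. The 3 groups stood apart. On the log2 scale Ifi44 changed by 1.09 with IL-6 (SE 0.26, adjusted p = 0.0400) and by −1.72 with IL-4 (adjusted p = 0.00217). The IL-6 call was kept in 2 of the 9 leave-one-out fits, and the IL-4 call in all 9.

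Trim30a, a tripartite-motif protein, fell with IL-4 from 17.7 to 22.2 FPKM to 15.1, 10.3 and 5.27 (log2 fold change −1.12, adjusted p = 0.0393, kept in 1 of the 9 leave-one-out fits and lost after median-ratio rescaling), and Rtp4 from 8.28, 14.0 and 14.5 to 7.32, 4.13 and 2.95 (−1.39, adjusted p = 0.0242). Ifi27l2a spread in control itself, at 15.8, 40.1 and 36.4 FPKM, and its IL-4 libraries at 8.21, 11.7 and 12.8 lay below without a call (−1.40, adjusted p = 0.0584). Lgals3bp, a secreted glycoprotein and among the most abundant members, was at 176 to 217 FPKM in control, 75.8 to 153 with IL-4 and 241 to 287 with IL-6, and was called only between the cytokines (1.16, adjusted p = 0.00938). Xaf1, Ifi35 and Samd9l were called in no comparison. Rnf213, a large ubiquitin ligase, was called only between the cytokines (2.16, adjusted p = 0.0436) and had the longest exons of the list. Its call was kept in 3 of the 9 leave-one-out fits.

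**Figure D3:**
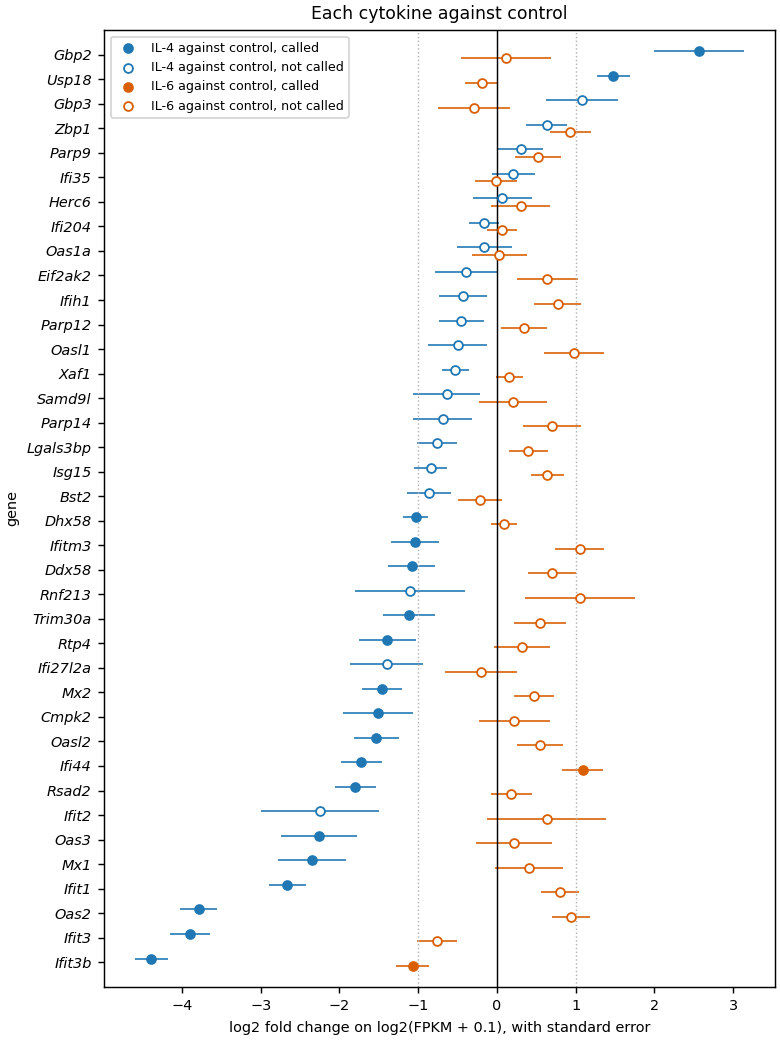
Log2 fold change of each of the 38 members against control on log2(FPKM + 0.1), with IL-4 in blue and IL-6 in orange, bars for the standard error, filled points for called members and dotted lines at −1 and 1. IL-4 runs from −4.39 (Ifit3b) to 2.57 (Gbp2), while IL-6 lies between −1.07 and 1.09.

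The other genes of the pathway were taken as lists of 108 genes, of which 83 could be tested. With IL-4, 5 of the 83 were called higher and 16 lower, where 5.02% and 8.89% of all genes were. With IL-6, 6 were higher and 0 lower, against 3.49% and 1.89% of all genes. Between the cytokines 25 were higher with IL-6 and 2 higher with IL-4, against 13.6% and 6.82%.

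The ligands were at or near 0. Of 20 interferon genes, 17 were at 0 in all 9 libraries, a count that allows up to 3 fragments a library and covers counting error only. Reads shared between close copies may have been lost, so a 0 is not proof of absence. Ifnb1 had 2 fragments in Control #2 and in IL-6 #3 and 0 elsewhere, and Ifnk had 1 to 4 in 4 libraries of Control and IL-6 and 0 with IL-4. Ifng, interferon-γ, had 26, 12 and 3 fragments in IL-4 #1, #2 and #3 and 0 in the other 6 libraries. Gbp2, Gbp3, Irf1 and Ciita were likewise highest in IL-4 #1 and lowest in IL-4 #3 of the IL-4 libraries, which was noticed after their values were seen. That pattern is not particular to them, as 27 of the 38 members (71.1%) and 39.4% of all genes tested had it, members that fell included, and the part of Ifng in these results was not tested. The sum over 6 lymphocyte markers, a kind of cell that can make interferon-γ, was 10.9 to 12.7 FPKM with IL-4, 11.5 to 21.2 in control and 8.39 to 16.0 with IL-6. Ncr1, a marker of natural killer cells, was at 0.247 FPKM in IL-4 #1 and at 0.0185 to 0.0744 in the other libraries.

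The receptor genes did not pass the fold threshold against control. Ifnar1 was at 36.7, 27.1 and 28.0 FPKM in control, at 22.0, 21.7 and 15.3 with IL-4 and at 56.8, 48.2 and 49.7 with IL-6, without overlap, and was called higher with IL-6 than with IL-4 (1.40, adjusted p = 0.000691). Ifnar2 was at 53.3 to 56.0, 32.5 to 34.6 and 61.2 to 66.3 FPKM, also without overlap (log2 fold change −0.70 with IL-4, adjusted p = 0.000948).

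Stat2 and Irf9, subunits of the transcription complex, were not called in any comparison. Stat2 was at 14.4, 11.6 and 13.0 FPKM in control, at 17.8, 13.0 and 6.09 with IL-4 and at 16.8, 20.7 and 19.3 with IL-6 (log2 fold changes −0.20 and 0.54, adjusted p = 0.691 and 0.440). Irf9 was at 9.11 to 10.4 FPKM in control and 6.73 to 9.45 with IL-4 (−0.22, adjusted p = 0.360). The IL-4 libraries of Stat2 lay on both sides of the control range.

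Irf7, the factor that amplifies interferon responses and is itself interferon-induced, is no member of the list. It was at 8.32, 11.9 and 10.5 FPKM in control, at 2.25, 1.75 and 2.20 with IL-4 and at 12.5, 17.5 and 14.0 with IL-6, without overlap. It fell with IL-4 by 2.25 on the log2 scale (SE 0.19, adjusted p = 0.000112), and its IL-6 value was not called (0.51, adjusted p = 0.163). Irf8, a Mϕ lineage factor, fell with IL-4 from a mean of 43.2 to 18.4 FPKM (−1.25, adjusted p = 0.000837). Irf1, which interferon-γ induces, rose to 88.7, 53.4 and 39.3 FPKM from 21.4 to 27.0 (1.26, adjusted p = 0.0132).

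Of 13 sensors and adaptors upstream of interferon, 3 fell with IL-4 and none rose, where 8.89% and 5.02% of all genes did. Tlr9, the receptor for unmethylated DNA, was at 20.7, 8.89 and 11.1 FPKM in control and at 1.67, 1.57 and 0.0432 with IL-4 (log2 fold change −4.09, adjusted p = 0.0114). Tlr7, the receptor for single-stranded RNA, fell by 1.62 (adjusted p = 0.0133), and Ikbke, a kinase that activates IRF3 and IRF7, by 1.92 (adjusted p = 8.60e-05). With IL-6 no gene of this list was called.

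Of 7 restraints tested, 2 rose with IL-4 and 5 were not called, where 5.02% of all genes rose and 8.89% fell. With IL-6, 1 rose and 6 were not called, against 3.49% higher and 1.89% lower. Of those not called with IL-4, Ptpn6 lay below and Samhd1 above control in every IL-4 library. Socs1, which blocks JAK kinases, was at 1.20 to 1.45 FPKM in control, 31.2, 28.2 and 21.3 with IL-4 and 1.31 to 1.72 with IL-6 (log2 fold change with IL-4 4.20, SE 0.18, adjusted p = 3.36e-06). Ptpn2, a phosphatase that acts on JAK1, rose from 5.99 to 6.23 FPKM to between 11.7 and 14.3 with IL-4 (1.12, adjusted p = 0.000405). Socs3, which restrains IL-6 signaling, rose only with IL-6, by 5.12 (adjusted p = 3.02e-05) against 0.16 with IL-4 (adjusted p = 0.680), and the difference between the cytokines was 4.96 (adjusted p = 6.20e-06).

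**Figure D4:**
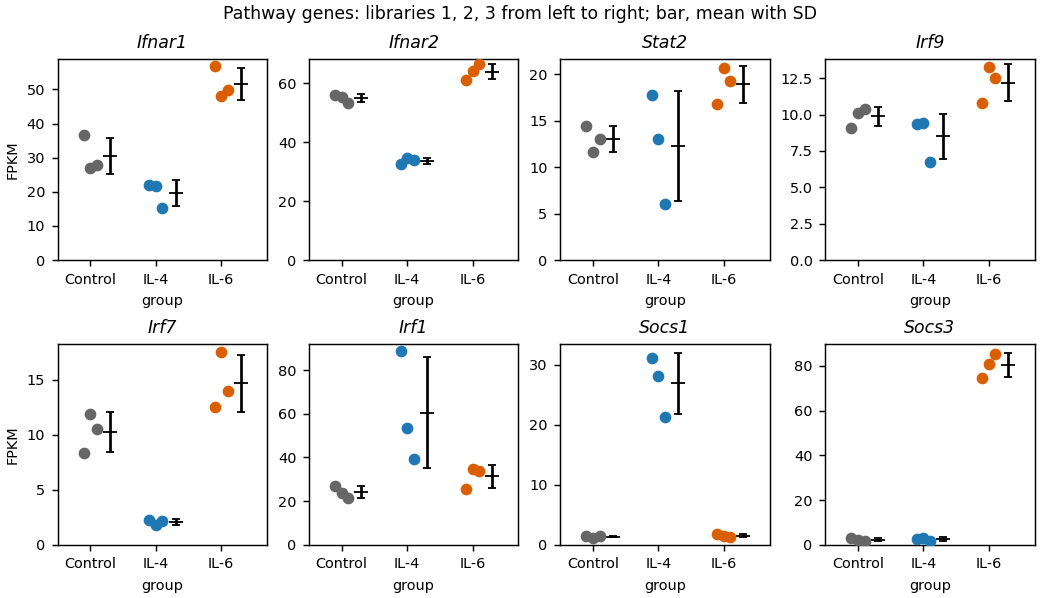
FPKM of 8 genes of the interferon pathway that are not members, in each library (points, replicates 1 to 3 from left to right within a group), with the group mean and SD, on axes from 0. Irf7 is at 1.75 to 2.25 FPKM with IL-4 against 8.32 to 11.9 in control, and Socs1 is high with IL-4 alone and Socs3 with IL-6 alone. Among the IL-4 libraries, Ifnar1, Stat2, Irf1 and Socs1 are highest in IL-4 #1 and lowest in IL-4 #3.

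Of 10 tested genes that lean to interferon-γ, 1 was called higher with IL-4, 1 lower and 8 not called. Of all genes 5.02% were higher and 8.89% lower. The 1 called higher was Ciita, the master regulator of MHC class II (32.9, 18.9 and 3.28 FPKM against 1.12 to 2.33, log2 fold change 2.84, adjusted p = 0.0242). The 1 called lower was Cxcl10, a T cell chemokine (0.104, 0.220 and 0.0556 FPKM against 3.02 to 5.70, −4.29, adjusted p = 5.71e-05). Of 38 further interferon-stimulated genes tested, 10 fell with IL-4 (among them Ms4a4c, Ifitm6 and Ifitm1) and none rose, beside 8.89% and 5.02% of all genes. With IL-6, 5 of the 38 rose and none fell, beside 3.49% and 1.89% of all genes. The largest was Ifitm1, from 4.19, 6.31 and 5.63 FPKM to 119, 125 and 135 (4.55, adjusted p = 1.27e-05), followed by Ms4a4c (1.70, adjusted p = 0.00740), Ly6e (1.31, adjusted p = 0.00870), Ifitm2 (1.07, adjusted p = 0.00396) and Apobec3 (1.04, adjusted p = 0.00984). Ifitm1, Ifitm2 and Ifitm3 lie together on chromosome 7, and Ifitm3 was at 2.05 times control with IL-6.

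In IL-4 #3, members with short exons were high and those with long exons low against the mean of IL-4 #1 and #2. Over the 7 members with exons under 2000 bases the median log2 difference was 0.90, over the 15 from 2000 to 4000 bases −0.62, and over the 16 of 4000 bases or more −1.19. All genes tested showed the same order at 0.39, −0.05 and −0.76. Across the 38 members Spearman's rho with exon length was −0.65, and across all genes −0.45. Genes are not independent replicates, so these are descriptions of 1 library.

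**Figure D5:**
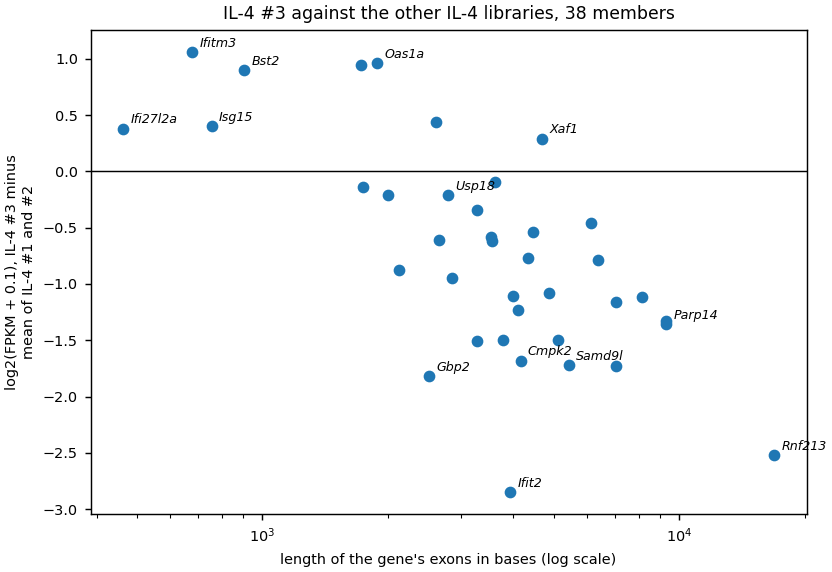
Log2(FPKM + 0.1) in IL-4 #3 minus the mean of IL-4 #1 and #2 for each of the 38 members, against the length of the gene's exons on a log scale. Isg15, Bst2, Ifitm3, Oas1a and Ifi27l2a, with short exons, lie above 0, and Rnf213, with the longest, near −2.5.

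Without IL-4 #3, IL-4 still had 18 members called against control (3 higher and 15 lower, background 14.7%, 6.67% higher and 7.99% lower), 14 of them the same. Ddx58, Dhx58, Cmpk2 and Trim30a lost their call, and Ifit2, Bst2 and Ifi27l2a (lower) and Gbp3 (higher) gained one. The median log2 fold change with IL-4 became −0.70. IL-6 had 3 members called against control (background 7.81%), with Ifitm3 added, and IL-6 against IL-4 had 23 (background 17.9%). Over all leave-one-out fits, 11 of the 18 IL-4 calls were kept in all 9, namely those of Ifit1, Ifit3, Ifit3b, Mx1, Mx2, Oas2, Oas3, Oasl2, Rsad2, Ifi44 and Usp18. Of the 25 calls between the cytokines, 18 were kept in all 9. The other 7 were those of Rnf213, Parp14, Ifih1, Ifit2, Cmpk2, Oasl1 and Lgals3bp.

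The sets of libraries defined by intestinal transcripts gave comparisons of their own. Within the set that holds all controls, IL-4 #1 lay below the control range in 24 of the 38 members, above it in 8 and inside it in 6, where 39.3% of all genes lay below and 29.6% above, with Ifit3b at 3.02%, Oas2 at 6.89% and Gbp2 at 1485% of the control mean. Within the other set, all IL-6 libraries lay above IL-4 #2 and #3 in 31 members, below them in 3 and overlapped them in 4, against 41.8% of all genes above and 24.4% below. With the set as a term in the fit, which rests on IL-4 #1 against IL-4 #2 and #3, IL-4 had 12 members called (4 higher and 8 lower, background 8.66%, 4.00% higher and 4.66% lower), 10 of them the same. Ifit1 (−2.18), Ifit3 (−3.36), Ifit3b (−4.10), Oas2 (−3.56), Gbp2 (3.92) and Usp18 (1.56) were among those kept, and Mx1 (−1.44, adjusted p = 0.0794) among those lost. For IL-6 against control Ifi44 and Ifit3b lost their calls with the term and Zbp1 alone gained one (1.88, adjusted p = 0.0198, background 1.46%). The median over the members became 1.27. Between the cytokines 27 were called with the term (background 25.5%). What the sets are was not tested.

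Of the granulocyte, dendritic cell and lymphocyte sums, only that of granulocytes set IL-4 apart from control. The sum over 8 granulocyte markers was 2135 to 3975 FPKM with IL-4, 4729 to 8431 in control and 7861 to 10916 with IL-6. Plasmacytoid dendritic cells are the main source of interferon-α, and the sum over 7 of their markers was 20.6 to 31.3 FPKM in control, 21.7 to 72.1 with IL-4 and 17.6 to 27.5 with IL-6, with the highest value, in IL-4 #3, made up mostly of Cox6a2 at 51.1 FPKM. Siglech, their defining marker, was at 0.578 to 1.16 FPKM with IL-4, 3.10 to 3.47 in control and 1.82 to 3.71 with IL-6. Siglech and Ccr9 fell with IL-4, Cox6a2 rose, and Klk1, Spib, Ly6d and Tcf4 of the same list were not called. For 5 markers of conventional dendritic cells the sum was 1.94 to 2.87 FPKM in control, 2.35 to 2.55 with IL-4 and 2.33 to 4.38 with IL-6. All markers of these lists were above 0 in at least 1 library, and their part in the results was not tested.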

How the data were processed

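The deposited values are FPKM of 53379 genes in 9 libraries, which the authors computed from polyadenylated RNA sequenced with a strand-marking kit. The sources name STAR 2.4.2a, GRCm38, Cufflinks 2.2.1 and GENCODE M5. The identifiers matched GENCODE M21 with version in 94.8% of genes, and coordinates come from M21. Of 86085 low values, 100.0% were whole fragments within 0.05, as a read counter gives, so the program behind the FPKM is not settled, and the recovered fragments cover counting error only. Reads shared between close copies may have been split or lost.

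FPKM were taken as log2(FPKM + 0.1), which understates the change of low genes. The 12824 genes with a mean of at least 0.5 FPKM went into one limma model of the 3 groups (limma 3.58.1, trend and robust, under R 4.3.3), with Benjamini-Hochberg adjustment over all of them. All tests are two-sided. The fit was tested on simulated data. Other steps used pandas 2.3.3, numpy 2.4.6 and matplotlib 3.10.9 under Python 3.11.15.

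The members, the pathway and marker lists and the tests were chosen with earlier results of these data known. Some genes were given values in every library and a log2 fold change with adjusted p for IL-4 against control. These are the 4 highest and 4 lowest called members of each comparison and Isg15, Usp18, Ifit1, Mx1, Irf7 and Stat2. Standard errors and statistics of the other comparisons are printed for part of them. Socs3 and Arg1 were checks, and other members were described by family. Another gene of this rule is not reported here. Lyz1 was left out of the intestinal sum as a near copy of Lyz2. Deviations from the group means of same-numbered control and IL-6 libraries correlated at 0.408, 0.201 and 0.166, so the number was taken to pair them, by the data and not by the labels. Alternatives were other pseudocounts, filters and scalings, only the groups compared, the library number as a block, the set of libraries as a term, voom on recovered fragments, removal of length and GC trends, and leaving out each library.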

Additional observations from a re-analysis of the deposited data

How the results depend on the processing

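The number of members called with IL-4 against control was 18, and 12 to 18 when 1 library was left out (12 without Control #2 and without Control #3). It was 11 at a mean of at least 5 FPKM, where 27 members could be tested. The median log2 fold change over all 38 members was −0.95, from −1.05 to −0.70 with 1 library left out. It was −0.75 after median-ratio rescaling, which moved the median of all genes from −0.20 to −0.01, −0.64 when the set of libraries was a term and −0.69 with length and GC trends removed. Members called with IL-6 against control numbered 2, and 0 to 3 with 1 library left out. They were 0 with a pseudocount of 1 or 0.01 and at a mean of at least 5 FPKM, and 1 with quantile normalization or the set as a term, where the median became 1.27. Between the cytokines 25 were called, and 19 to 27 with 1 library left out, with a median of 1.43, from 1.21 to 1.58. The median was 1.10 with a pseudocount of 1, 1.20 at a mean of at least 5 FPKM, and 1.23 after median-ratio rescaling and with length and GC trends removed. With the library number as a replicate block the counts were 19, 1 and 27, so that Ifi27l2a was added for IL-4, Ifit3b and Ifi44 were lost and Ifitm3 added for IL-6, and Gbp3 and Ifi27l2a were added between the cytokines. Signs turned with the set as a term for Ifih1 (0.05), Parp14 (0.04), Parp12 (0.09), Samd9l (0.05) and Rnf213 (0.12) with IL-4 and for Oasl1 (−0.09) and Ifit3 (0.05) with IL-6, for Ifi204 between the cytokines without length and GC trends (−0.14), and for Parp9 with IL-4 without IL-4 #1 (−0.01, against up to 0.65 without IL-4 #3), none of them called. Counting also members closer to 0 than their SE, the sign turned in some leave-one-out fit for 6 members in IL-4 against control and for 4 in either other comparison, and none of these was called. The deviations of same-numbered control and IL-4 libraries correlated at 0.521, −0.415 and 0.0777, and those of IL-4 and IL-6 libraries at 0.281, −0.0612 and 0.153. In each case 3 of 6 libraries correlated best with their own number, so these libraries share only a number. The causes were not tested.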
